A study of Mus musculus with 9 samples.

Results

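The genes described here encode nucleoporins, the proteins of the nuclear pore, and the receptors that carry proteins and RNAs through it. They were taken as every protein-coding gene row whose symbol begins with Nup, Kpna, Ipo or Tnpo and a number, is Kpnb1, or begins with Xpo and a number or t. This gave 44 genes of the 50493 features in the table, 21401 of which are protein-coding NCBI genes. RNA was measured in 3 kinds of male germ cell from the testis of wild-type (WT) mice: pachytene spermatocytes (PAC), which pair and recombine their chromosomes in meiosis; round spermatids (RS), haploid cells with an open, active nucleus; and elongating spermatids (ES), which compact the nucleus and shape the sperm. Each cell type had 3 libraries of total RNA with ribosomal RNA removed and strand kept, and all shared the WT genotype, with no treatment named. The series title names a long non-coding RNA and PIWIL1, and no question about nuclear transport. The sources used here do not give the ages of the mice, the way the cells were isolated or the number of animals per library.

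A nuclear pore is a channel through the nuclear envelope with stacked rings of scaffold proteins, the outer (Y complex) and inner rings, held by membrane proteins and lined by nucleoporins rich in phenylalanine-glycine repeats. Importin alpha proteins read a nuclear localisation signal and bind importin beta, whose family also carries many cargoes directly, while exportins carry cargo out, and the small GTPase Ran tells the receptors which side they are on. During spermiogenesis histones give way to transition proteins and protamines, which must enter the nucleus, and pores are lost from parts of the envelope as the nucleus condenses.

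Library totals ran from 22910156 to 33801617 estimated counts, and 26030 features, all 44 members among them, had enough counts for a test. Levels are CPM, counts set to a common library size, after TMM scaling, a correction for differences in library makeup. Fold changes are on the log2 scale with standard errors (SE), and calls are at an adjusted p below 0.05 in edgeR's quasi-likelihood test. Of 9 PAC markers (Sycp3 and others) 8 were lower in RS, of 8 RS markers 6 were higher in RS than in PAC and 6 lower in ES than in RS, and all 8 markers of ES, protamine and transition protein genes among them, were higher in ES than in RS. Of the RS markers 1 was higher in ES. Genes of other testis cells differed too: 14 Sertoli markers summed to 44.6 to 96.2 CPM in PAC, 12 to 13.2 in RS and 290 to 326 in ES. The 12 macrophage and blood markers summed to 6.47 to 7.99, 19.4 to 23.4 and 173 to 272 CPM, and the 8 Leydig markers to 101 to 139, 2.10 to 2.25 and 19.4 to 26.0 CPM, in the same order. Amh (Sertoli) and Lhcgr (Leydig) were at 0 in every RS library, and Col1a1 (peritubular) in every PAC library. These sums move with ES against RS and with PAC against RS, and their part in the results below was not tested. In bulk RNA, fewer cells of a type and less RNA per cell cannot be told apart. The 3 comparisons share libraries, so they are not independent of each other.

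From PAC to RS the RNA of most of these genes went down. Of the 44 members 25 fell (56.8%) and 5 rose (11.4%), and 14 were not called. Of all features tested, 34.2% fell and 38.2% rose. Among the 14833 protein-coding genes tested the shares were 46.9% and 26.3%, so the members' share of falls lay nearer to that of coding genes than to that of all features. The members' median log2 fold change was -0.55, against 0.11 over all features and -0.46 over protein-coding genes, and 17 members fell at least 2-fold. With upper-quartile scaling, which raised the median of all features to 0.42, the members' split was 9 higher and 18 lower.

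**Figure D1:**
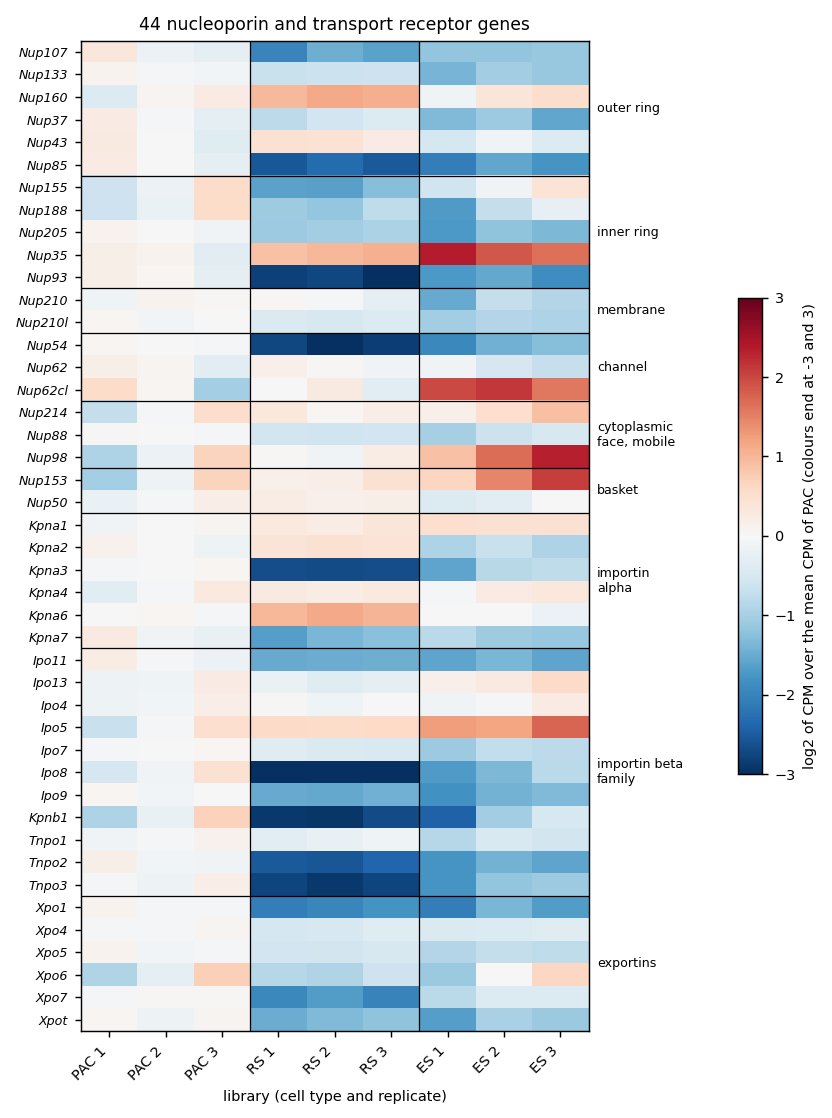
Levels of the 44 members in each of the 9 libraries (columns, 3 per cell type), as log2 of CPM over the mean CPM of PAC, ordered by role (right). Blue is below and red above the PAC mean: most rows turn blue in RS, Kpna6, Nup160 and Nup35 turn red there, and Nup98, Nup35, Nup62cl, Nup153 and Ipo5 are red in ES.

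From RS to ES the members parted. Of the 44, 16 rose (36.4%) and 12 fell (27.3%), where 24.5% of all features and 31.8% of protein-coding genes rose and 22.1% and 21.7% fell. The split depended on the scaling: 11 rose and 14 fell with total counts alone, which moved the median of all features from 0.05 to -0.28, and 18 rose and 8 fell with DESeq2's size factors, which moved it to 0.19. Of the 25 members that fell in RS, 10 rose in ES, 5 fell further and 10 were not called. Of the 10 that rose, 8 were still lower in ES than in PAC, and Kpnb1 and Nup155 were not called there. Of all 25, 22 were lower in ES than in PAC. The 10 are the members lowest in RS, where 12.8% of all features were. The 22 are the members highest in PAC, where 25.4% of all features were. Shares among only those features that fell in RS were not counted. The same RS libraries enter both steps, so a fall followed by a rise is not 2 independent results. Germ cell markers moved in both directions. Of 9 PAC markers 8 fell in RS, and in ES against RS 5 rose and 2 fell. The PAC markers summed to 683 to 707 CPM in RS and 580 to 704 in ES. Of 8 spermatogonial markers 4 fell and 2 rose in RS, and in ES against RS 5 rose and 1 fell. The part of these markers in the members' changes was not tested.

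In ES against PAC, 25 members were lower (56.8%) and 6 higher (13.6%). Over all features 33.7% were lower and 30.6% higher, and over protein-coding genes 42.6% and 25.2%. The members' median was -0.77, against -0.09 over all features and -0.38 over protein-coding genes. Upper-quartile scaling gave 22 lower and 11 higher, with a median of all features of 0.21.

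**Figure D2:**
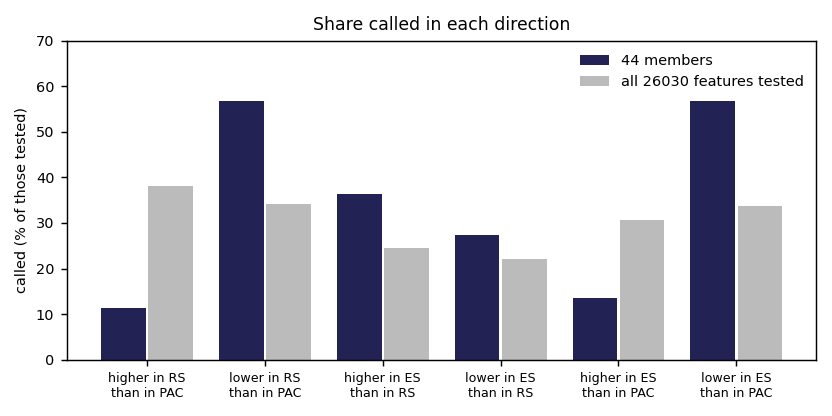
Share of the 44 members (dark bars) and of all 26030 features tested (grey bars) called in each direction of each comparison, in percent. The members' bar stands above the grey one for lower in RS than in PAC (56.8% against 34.2%) and lower in ES than in PAC (56.8% against 33.7%), and below it for higher in RS than in PAC (11.4% against 38.2%). Among protein-coding genes, not drawn, the shares were 46.9%, 42.6% and 26.3% in the same order.

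Taking both comparisons of a cell type, 22 of 44 members were highest in PAC, where 25.4% of all features, non-coding ones included, were. Only 3 were highest in RS (Kpna2, Kpna6 and Nup160), against 13.4% of all features, and 5 were highest in ES (Nup35, Nup62cl, Nup98, Nup153 and Ipo5), against 13.3%. With total counts alone, and without any of the 3 RS libraries or without ES replicate 3, the number highest in ES was 3. At the other end, 10 members were lowest in RS, 8 in ES and 2 in PAC, where 12.8%, 9.42% and 23.4% of all features were. No difference was called in any comparison for Nup62, Nup214, Kpna4, Ipo4 and Xpo6. Despite these changes the summed level of the 44 genes ranged from 7080 to 7900 CPM in PAC, 6810 to 7060 in RS and 5760 to 7910 in ES, since a few abundant genes carried much of it.

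The 250 bases before the RefSeq transcript start of 4 members are shown to set genes that move in opposite ways side by side: Kpna2 and Nup160, highest in RS with a single promoter entry, and Ipo8 and Nup54, the pair with a single entry that fell most in RS. Sequences are from RefSeq on GRCm38.p6, written 5′ to 3′ on the gene's strand: Kpna2 from chr11:106999526-106999775 (minus), Nup160 from chr2:90676965-90677214 (plus), Ipo8 from chr6:148831468-148831717 (minus) and Nup54 from chr5:92435200-92435449 (minus). The Ipo8 window lies wholly inside the gene span of the same annotation, which begins farther upstream, and 60 bases of the Nup54 window lie inside its gene. Capitals mark matches, on either strand, to the cyclic AMP response element (CRE) core TGACG or to the MYB core CNGTT.
Kpna2: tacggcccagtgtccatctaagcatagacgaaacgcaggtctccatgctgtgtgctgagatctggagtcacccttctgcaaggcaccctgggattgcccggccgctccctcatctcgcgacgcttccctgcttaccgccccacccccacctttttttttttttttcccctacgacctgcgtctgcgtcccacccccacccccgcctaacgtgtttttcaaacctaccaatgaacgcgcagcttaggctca
Nup160: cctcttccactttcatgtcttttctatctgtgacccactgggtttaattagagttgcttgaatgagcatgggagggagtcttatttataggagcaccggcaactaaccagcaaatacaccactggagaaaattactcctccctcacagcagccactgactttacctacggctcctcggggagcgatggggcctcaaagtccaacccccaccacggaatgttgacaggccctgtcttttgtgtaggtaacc
Ipo8: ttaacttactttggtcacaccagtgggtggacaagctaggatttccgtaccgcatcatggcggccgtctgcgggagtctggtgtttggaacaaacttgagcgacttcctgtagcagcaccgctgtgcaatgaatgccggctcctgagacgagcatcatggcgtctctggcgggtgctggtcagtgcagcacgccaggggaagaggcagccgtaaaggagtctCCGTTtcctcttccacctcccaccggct
Nup54: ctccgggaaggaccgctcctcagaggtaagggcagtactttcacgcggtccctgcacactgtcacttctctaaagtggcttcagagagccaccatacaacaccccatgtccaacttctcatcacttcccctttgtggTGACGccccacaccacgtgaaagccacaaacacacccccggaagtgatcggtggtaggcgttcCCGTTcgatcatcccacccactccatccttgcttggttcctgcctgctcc
Kpna2 and Nup160 held neither motif in this window, Ipo8 held 1 MYB core, and Nup54 held 1 match of each. A promoter entry was found for 35 members, 42 entries in all, with a median GC content of 64.2% in these windows against 52.4% over all 32851 entries. The MYB core was in 27 of 35 member genes (77.1%) and in 76.8% of all genes, and the CRE core in 11 (31.4%) against 19.8%. The full CRE, TGACGTCA, which contains the core, was in 2 members, Nup133 and Nup214 (5.71%, against 1.77%). The core of the NRF1 site, GCGCATGC, was in 4, Nup50, Nup62, Nup107 and Xpo5 (11.4%, against 2.56%). Of the members with an entry, 20 fell in RS, 16 of them with a MYB core, and 2 rose. A match is only a run of letters, and no factor's binding was measured here.

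The importin alpha adaptors read the classical nuclear localisation signal, and in RS 3 of the 6 rose and 2 fell. Among protein-coding genes 26.3% rose and 46.9% fell. With total counts alone or DESeq2's size factors 2 adaptors rose and 2 fell, and with upper-quartile scaling 4 rose. Kpna2 (chromosome 11, 106988629 to 106999525) was the member with the highest level per length, 669 ± 62.2 FPKM (SD, n = 3) in PAC and 932 ± 16.9 in RS. It measured 1430, 1300 and 1170 CPM in the PAC libraries, 1710, 1790 and 1730 in RS and 679, 815 and 689 in ES. Every RS library lay above every PAC library, and every ES library below both. The log2 fold change was 0.42 (SE 0.13, edgeR adjusted p = 0.0122; 0.73 with upper-quartile scaling) in RS against PAC and -1.26 (SE 0.13, edgeR adjusted p = 2.22e-05) in ES against RS.

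Kpna6 (chromosome 4, 129643979 to 129672767), another importin alpha, was picked for naming after its values were seen. Its level was 464, 488 and 451 CPM in PAC, 936, 1020 and 943 in RS and 469, 475 and 413 in ES. On average RS stood 2.06-fold above PAC (log2 fold change 1.05, SE 0.12, edgeR adjusted p = 1.46e-05) and above ES, with no call between ES and PAC (-0.05, adjusted p = 0.739), where ES replicate 3 lay below all PAC libraries. Kpna1, also named after its values were seen, gave 36.5 to 41.7 CPM in PAC, 45.8 to 50 in RS and 53.7 to 55.7 in ES. Its rise of 0.29 in RS (adjusted p = 0.0445) is a marginal call: it was lost in 12 of 20 alternatives, among them leaving out PAC replicate 1 or 2, any RS library, or ES replicate 2 or 3, with log2 fold changes of 0.24 to 0.34 there. Its rise in ES against PAC was 0.47 (adjusted p = 0.00454), and 0.18 (adjusted p = 0.289) with total counts alone.

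Kpna3 (chromosome 14, 61365186 to 61439947) went the other way. It measured 34.5, 36.3 and 37.8 CPM in PAC, 5.76, 5.68 and 5.72 in RS and 12.1, 20.2 and 21.2 in ES. None of the groups overlapped: Kpna3 fell 6.33-fold in RS (-2.66, SE 0.21, edgeR adjusted p = 1.06e-06) and rose 3.11-fold in ES (1.64, SE 0.20, adjusted p = 6.61e-05). Kpna7, known chiefly from oocytes and early embryos, was scarce, at 5.69 to 8.09 CPM in PAC, 2.11 to 2.80 in RS and 3.03 to 3.78 in ES. It fell in RS (-1.41, SE 0.22, adjusted p = 0.000151), with no call between RS and ES (0.41, adjusted p = 0.154). Kpna4 lay at 140 to 214 CPM in PAC, 204 to 213 in RS and 169 to 215 in ES. Summed over the 6 adaptors, the level was 2030 ± 96.6 CPM in PAC, 2970 ± 79.8 in RS and 1450 ± 106 in ES, and Kpna2 and Kpna6 set most of that sum.

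**Figure D3:**
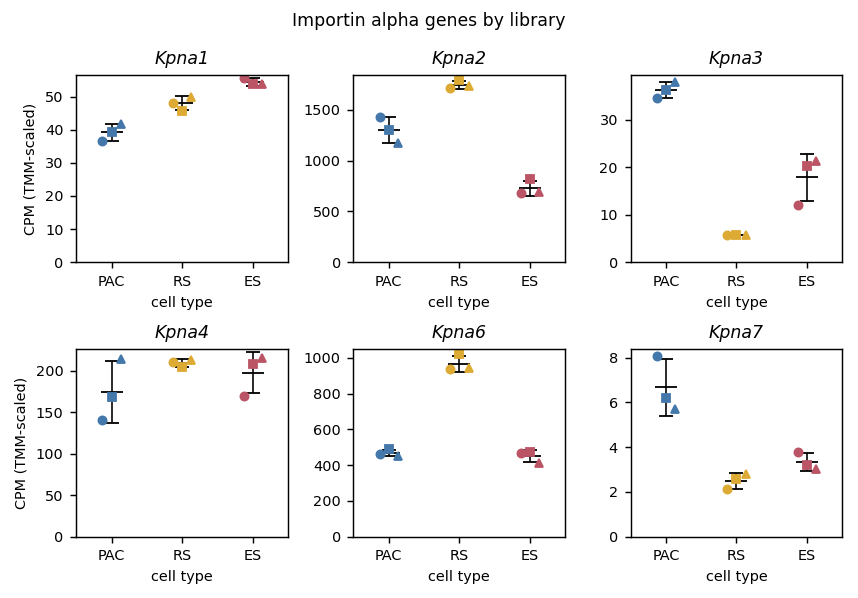
Level of the 6 importin alpha genes in TMM-scaled CPM, per library (circle, square and triangle for replicates 1, 2 and 3), with mean and SD per cell type as bars and each vertical axis starting at 0. Kpna2 and Kpna6 peak in RS (1710 to 1790 and 936 to 1020 CPM), while Kpna3 is lowest there. Kpna7 is lower in RS than in PAC, with no call between RS and ES.

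Of the 11 import receptors of the importin beta family, 7 fell in RS and none rose, where 46.9% of protein-coding genes fell and 26.3% rose. With total counts alone 6 fell, and with upper-quartile scaling 6 fell and 1 rose (Ipo5). In ES against RS 6 of the 11 rose (3 with total counts alone), where 31.8% of protein-coding genes did, and 2 fell, Ipo7 and Tnpo1, both named after their values were seen. Kpnb1 (chromosome 11, 97159710 to 97187892) encodes importin beta itself, the partner of the adaptors. Its level was 72.9, 118 and 224 CPM in PAC, 18.6, 18.3 and 21.4 in RS and 25.6, 66.7 and 99.5 in ES. Every RS library lay below all the others, but PAC and ES were each spread widely. Kpnb1 fell in RS (-2.83, SE 0.52, edgeR adjusted p = 0.00106). The rise in ES (1.72, SE 0.51, adjusted p = 0.0205) was lost without ES replicate 3 (1.25, adjusted p = 0.0777), without RS replicate 1, 2 or 3 (1.68, 1.66 and 1.79) and on the FPKM values (1.17). ES against PAC was not called (-1.11, adjusted p = 0.0749), but was called without PAC replicate 1 (-1.44, adjusted p = 0.0201) or ES replicate 3 (-1.58, adjusted p = 0.03), in DESeq2's test (-1.04, adjusted p = 0.0246) and on FPKM values (-1.43, limma adjusted p = 0.0308).

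Ipo8 (chromosome 6, 148770683 to 148832931), an importin of small-RNA proteins and other cargoes whose promoter is printed above, had the steepest fall of the 44. It measured 6.07, 8.04 and 11.9 CPM in PAC, 0.904, 0.819 and 0.847 in RS and 2.65, 3.42 and 4.97 in ES. It fell 10.1-fold in RS (-3.33, SE 0.32, edgeR adjusted p = 4.52e-06) and rose 4.29-fold from there in ES (2.10, SE 0.32, adjusted p = 0.00029). It was the only member under 1 CPM in any library.

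The transportins carry RNA-binding proteins, and Tnpo3 the serine-arginine rich splicing factors. Tnpo2, whose exons share 69 bases with Gm25506 on the same strand, measured 170, 143 and 140 CPM in PAC, 26.2, 25.5 and 29.1 in RS and 44.4, 56.5 and 50.6 in ES. It fell 5.60-fold in RS (-2.49, SE 0.15, edgeR adjusted p = 1.80e-07) and rose by a log2 fold change of 0.91 in ES (adjusted p = 0.000325), or 0.52 to 0.59 with total counts alone or FPKM values. Tnpo3, named after its values were seen, had 64.4 to 81.2 CPM in PAC, 9.64 to 10.6 in RS and 20.9 to 33.5 in ES (RS against PAC -2.79, ES against RS 1.48). Tnpo1, the closest relative of Tnpo2, measured 161, 170 and 188 CPM in PAC, 138, 148 and 157 in RS and 95.2, 126 and 118 in ES. All ES libraries lay below all others, with log2 fold changes of -0.39 against RS (adjusted p = 0.0387) and -0.61 against PAC (adjusted p = 0.00221). The first was lost without PAC replicate 2, any RS library, or ES replicate 1 or 3 (-0.45 to -0.28), with DESeq2 (-0.25) and with the 2 cell types fitted alone (-0.35), and the second with upper-quartile scaling (-0.31) and with the 2 cell types fitted alone (-0.41). Tnpo1 and Tnpo2 thus had like levels in PAC, 161 to 188 and 140 to 170 CPM, and far apart ones in RS, 138 to 157 and 25.5 to 29.1.

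Ipo11 fell from 113, 93.3 and 86.5 CPM in PAC to 34.3, 34.8 and 35.3 in RS (-1.49, SE 0.14, edgeR adjusted p = 4.08e-06) and stood at 32.4 to 38 in ES. On the FPKM values, however, ES lay below RS by -0.64 (limma adjusted p = 0.00862). Ipo5 (chromosome 14, 120896840 to 120948046), which imports core histones and ribosomal proteins, was highest in ES. It measured 293, 447 and 660 CPM in PAC, 694, 684 and 703 in RS and 1120, 1060 and 1560 in ES. No group overlapped another, and ES stood above PAC by 1.42 (SE 0.26, edgeR adjusted p = 0.000581). The step from PAC to RS (0.57) was not called (adjusted p = 0.0613), but was without PAC replicate 3 (0.91, adjusted p = 0.00395) or ES replicate 3 (0.57, adjusted p = 0.046), with upper-quartile scaling (0.89, adjusted p = 0.00593), with a minimum count of 50 (0.66, adjusted p = 0.0361) and on FPKM values (0.68, limma adjusted p = 0.0462). The step from RS to ES (0.85, adjusted p = 0.0185) was lost without ES replicate 3 (0.64, adjusted p = 0.0668) or RS replicate 1, 2 or 3 (0.83, 0.82 and 0.85), and with total counts alone (0.53). It was also lost on FPKM values (0.50, limma adjusted p = 0.158).

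The remaining import receptors covered a range of levels. Ipo4 lay at 227 to 298 CPM in every library, Ipo13 at 84.2 to 161, and Ipo9 at 54.1 to 58.9 in PAC but 16.2 to 22.6 in RS and ES. Ipo7 had 54.4 to 59.4 CPM in PAC, 41.6 to 44.5 in RS and 26.8 to 34.1 in ES. Its fall of -0.41 in RS (edgeR adjusted p = 0.015) was lost without RS replicate 2 or 3 (-0.39 in both), with total counts alone (-0.37), with upper-quartile scaling (-0.10) and on FPKM values (-0.29). Its fall of -0.44 in ES against RS (adjusted p = 0.0176) was lost without RS replicate 1 (-0.43) and with DESeq2's size factors (-0.31). Summed, the family gave 1580 ± 311 CPM in PAC, 1330 ± 31.2 in RS and 1990 ± 369 in ES, with Ipo5 the largest part in ES.

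Of the 6 exportins, 5 fell in RS and none rose, and 5 were lower in ES than in PAC (3 and 3 with upper-quartile scaling). Of protein-coding genes 46.9% and 42.6% were lower in these comparisons, and 26.3% rose in RS. Xpo1 (chromosome 11, 23255909 to 23297597) encodes CRM1, which exports proteins with leucine-rich signals and several RNAs. It measured 218, 193 and 196 CPM in PAC, 47.8, 52.3 and 58.3 in RS and 47.7, 78.4 and 63.0 in ES. PAC lay above all 6 spermatid libraries, and Xpo1 fell 3.83-fold in RS (-1.94, SE 0.18, edgeR adjusted p = 3.34e-06). No difference was called between RS and ES (0.26, adjusted p = 0.248), except without ES replicate 1 (0.42, adjusted p = 0.0311).

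Xpot, the tRNA exporter, had 64.8 to 76.0 CPM in PAC, 25.6 to 31.0 in RS and 23.0 to 36.8 in ES, a fall of -1.34 in RS (SE 0.18, edgeR adjusted p = 4.58e-05). Xpo7 measured 24.6, 26.4 and 26.3 CPM in PAC, 6.72, 8.11 and 6.4 in RS and 14.6, 19.5 and 19.3 in ES. It fell by 1.86 in RS and rose by 1.33 in ES (adjusted p = 7.81e-05), and remained lower in ES than in PAC (-0.53, adjusted p = 0.0134; not called with upper-quartile scaling, -0.23, or with the 2 cell types fitted alone, -0.33). Its exons share 39 bases with Npm2 on the same strand in GENCODE, so reads there could belong to either gene. Xpo4, whose exons share 142 bases with Gm49361 on the same strand, had 120 to 132 CPM in PAC, 86.1 to 96.5 in RS and 92.0 to 96.8 in ES. Its fall of -0.45 in RS (adjusted p = 0.00432) was not called with upper-quartile scaling (-0.14) or on FPKM values (-0.24). Xpo5, the exporter of microRNA precursors, ranged from 113 to 129 CPM in PAC to 65.3 to 73.0 in ES. Over the 6 exportins the sum was 628 ± 50.7 CPM in PAC, 310 ± 20.6 in RS and 359 ± 69.0 in ES, with Xpo1 the highest of them in PAC.

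In the outer ring, which carries the Y-shaped scaffold, 4 of 6 members fell in RS and 1 rose (3 and 2 with upper-quartile scaling). Among protein-coding genes 46.9% fell and 26.3% rose. Nup85 (chromosome 11, 115564432 to 115583924) fell most: 39.5, 33.4 and 27.7 CPM in PAC, 5.79, 6.77 and 5.87 in RS and 7.94, 11.4 and 9.89 in ES. Its 5.46-fold fall (-2.45, SE 0.19, edgeR adjusted p = 1.18e-06) was followed by a rise of 0.67 in ES (adjusted p = 0.0129). That rise was lost without RS replicate 1 (0.61), RS replicate 3 (0.63) or ES replicate 2 (0.54) and with total counts alone (0.35). Nup107 had 22.6 to 34.6 CPM in PAC, 6.87 to 9.80 in RS and 12 to 12.3 in ES (RS against PAC -1.67, SE 0.20, adjusted p = 2.10e-05). Its ES against RS difference of 0.50 missed the threshold (adjusted p = 0.056) and passed without PAC replicate 1 (0.48, adjusted p = 0.0314).

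Nup160 (chromosome 2, 90677215 to 90739327), a partner of Nup85 and Nup107 in the same complex, moved against them. It measured 32.5, 45.5 and 50.6 CPM in PAC, 84.2, 93.9 and 90.7 in RS and 39.3, 55.3 and 61.4 in ES. RS lay above every other library, by 1.06 over PAC (SE 0.20, edgeR adjusted p = 0.000515), and ES fell back by 0.78 (adjusted p = 0.00642). ES against PAC was 0.28 (adjusted p = 0.23), and passed without ES replicate 1 (0.45, adjusted p = 0.0449) or with upper-quartile scaling (0.59, adjusted p = 0.0143). Nup37 fell at each step, from 62.7 to 88.8 CPM in PAC through 43.3 to 56.1 in RS to 25.6 to 35 in ES. Its fall in RS of -0.59 (adjusted p = 0.00975) was not called without RS replicate 1 (-0.49, adjusted p = 0.0556) or with upper-quartile scaling (-0.28, adjusted p = 0.177). Nup133 lay at 205 to 234 CPM in PAC and 81.6 to 105 in ES, and Nup43 at 14.4 to 28.5 CPM in all libraries.

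In the inner ring, 4 of 5 members fell in RS (3 with total counts alone or upper-quartile scaling) and Nup35 rose. Among protein-coding genes 46.9% fell and 26.3% rose. Nup205 (chromosome 6, 35177616 to 35247599), a large scaffold subunit, had the highest level per length of the nucleoporins in PAC, 188 ± 11.4 FPKM. In ES, Nup98 (132 FPKM) and Nup35 (115) stood above Nup205 (59.2). Nup205 measured 1230, 1130 and 1070 CPM in PAC, 535, 559 and 590 in RS and 348, 492 and 446 in ES. It fell 2.04-fold in RS (-1.03, SE 0.15, edgeR adjusted p = 7.48e-05). The further fall of -0.39 in ES (adjusted p = 0.044) was lost in 9 alternatives, among them leaving out PAC replicate 2, any RS library, or ES replicate 1 or 3, with values from -0.44 to -0.25.

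Nup93 (chromosome 8, 94214564 to 94328100), which binds Nup205 and links the ring to the channel, measured 26.8, 24.9 and 19.6 CPM in PAC, 3.43, 3.58 and 2.92 in RS and 7.24, 8.22 and 6.58 in ES. No group overlapped another, with a 7.16-fold fall in RS (-2.84, SE 0.19, edgeR adjusted p = 3.76e-07) and a rise of 1.15 in ES (adjusted p = 0.000412). Nup35 (chromosome 2, 80638812 to 80660071), a small membrane-binding subunit that also binds Nup93, climbed at both steps. Its level was 108, 102 and 75.4 CPM in PAC, 175, 190 and 198 in RS and 483, 344 and 300 in ES, or 3.94-fold higher in ES than in PAC (1.98, SE 0.20, adjusted p = 6.22e-06). Its exons share 49 bases with Dusp19 on the same strand.

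Nup155 had 20.2, 27.7 and 45.9 CPM in PAC, 10.2, 10.1 and 13 in RS and 20.6, 29.2 and 41.4 in ES. Its fall (-1.49, edgeR adjusted p = 0.00173) and its return (1.45, adjusted p = 0.00375) were both lost on FPKM values, where limma gave -0.46 (adjusted p = 0.122) and 0.56 (adjusted p = 0.0883). Nup188, the relative of Nup205, ranged from 129 to 291 CPM in PAC, 88.3 to 117 in RS and 60.7 to 168 in ES.

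**Figure D4:**
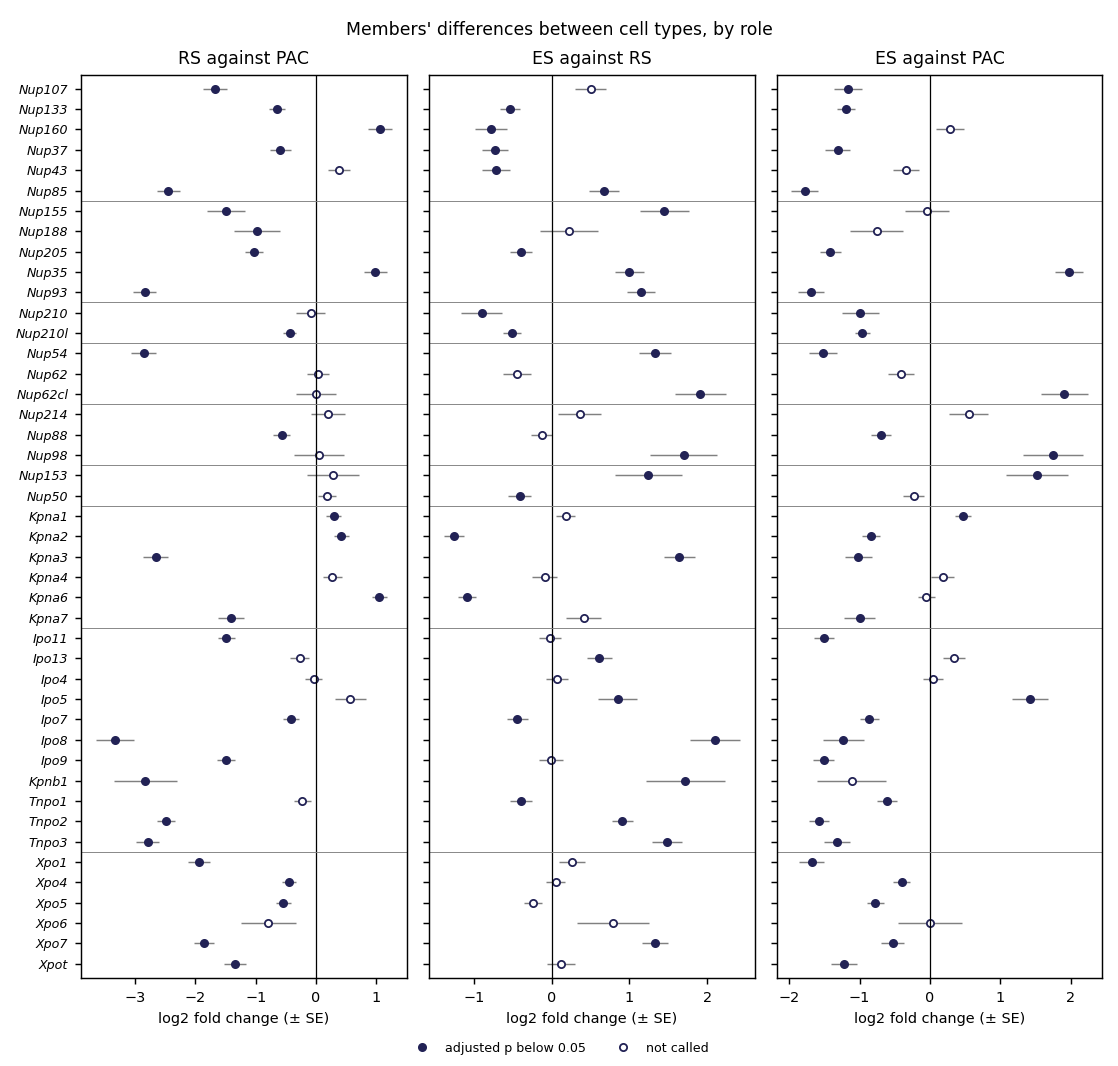
Log2 fold change of each member with its SE (horizontal bar), by role, for RS against PAC, ES against RS and ES against PAC. Filled points passed edgeR's adjusted p of 0.05 and open points did not; in the left panel 25 filled points lie left of 0 and 5 right of it, and in the middle panel 12 lie left and 16 right.

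The 2 membrane anchors were Nup210 and its testis relative Nup210l. Nup210l (chromosome 3, 90101007 to 90212151) measured 400, 363 and 386 CPM in PAC, 283, 274 and 288 in RS and 185, 207 and 200 in ES. It fell without overlap at each step, by 0.44 (edgeR adjusted p = 0.00445) and by 0.51 (adjusted p = 0.00336), the first of which was not called with upper-quartile scaling (-0.14). Nup210 lay at 2.80 to 3.29 CPM in PAC, 2.51 to 3.16 in RS and 1.08 to 1.87 in ES. Per length, Nup210l stood at 69.1 ± 1.70 FPKM in PAC and Nup210 at 0.473 ± 0.0578. Nup210 also fell in ES against RS, by 0.90 (SE 0.26, adjusted p = 0.0131).

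In the central channel 1 of 3 members fell in RS and 2 rose in ES, where 46.9% and 31.8% of protein-coding genes did. Nup54 (chromosome 5, 92415540 to 92435259) measured 15.8, 14.9 and 14.5 CPM in PAC, 2.26, 1.86 and 2.13 in RS and 3.95, 5.55 and 6.20 in ES. It fell 7.24-fold in RS (-2.86, SE 0.21, edgeR adjusted p = 7.06e-07) and rose 2.52-fold in ES (1.33, SE 0.21, adjusted p = 0.000312). Its binding partner Nup62 was abundant, at 122 to 170 CPM in PAC, 141 to 169 in RS and 93.5 to 140 in ES. Nup62 was not called lower in ES than in RS (-0.44, adjusted p = 0.0589), but was without PAC replicate 1 (-0.46), PAC replicate 3 (-0.47) or ES replicate 1 (-0.62, adjusted p = 0.00927), with no filter (-0.49), and with total counts alone or on FPKM values (-0.79 in both). Its exons share 88 bases with Il4i1 on the same strand and 82 with Atf5 on the other. Nup62cl (chromosome X, 140006802 to 140062707), a relative of Nup62, measured 6.34, 4.46 and 2.13 CPM in PAC, 4.28, 5.19 and 3.48 in RS and 17.1, 18.7 and 13 in ES. PAC and RS overlapped, and ES stood 3.77-fold above RS (1.91, SE 0.33, adjusted p = 0.000792).

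At the cytoplasmic face Nup88, which binds Nup214 and Nup98, fell from 150 to 159 CPM in PAC to 103 to 107 in RS (-0.57, SE 0.14, edgeR adjusted p = 0.00338), and lay at 78.3 to 111 in ES. With upper-quartile scaling that fall was -0.26 (adjusted p = 0.106). Nup98 (chromosome 7, 102119400 to 102210166), whose transcript also encodes the scaffold protein Nup96, measured 146, 244 and 440 CPM in PAC, 282, 256 and 322 in RS and 512, 891 and 1400 in ES. Every ES library lay above all the others, although the top library was 3.01 times the lowest in PAC and 2.74 times in ES. The rise in ES was 1.70 against RS (SE 0.43, adjusted p = 0.00994) and 1.75 against PAC (SE 0.43, adjusted p = 0.0056). The first was not called on FPKM values with no filter (1.20, limma adjusted p = 0.0774). Nup214 ranged from 26.7 to 81.1 CPM over the 9 libraries.

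In the nuclear basket Nup153 (chromosome 13, 46679902 to 46727849) measured 59.7, 109 and 193 CPM in PAC, 135, 138 and 165 in RS and 190, 332 and 510 in ES. PAC and ES overlapped in a single pair of libraries, PAC replicate 3 and ES replicate 1. The rise of 1.24 in ES against RS (SE 0.43, edgeR adjusted p = 0.0413) was lost in 11 alternatives, among them leaving out PAC replicate 2, any RS library, ES replicate 2 or ES replicate 3 (0.83, adjusted p = 0.156). Against PAC the rise was 1.52 (adjusted p = 0.0126), and 1.11 without ES replicate 3 (adjusted p = 0.0512). Nup50, a soluble basket protein that helps cargo release, had 79.4 to 104 CPM in PAC, 100 to 105 in RS and 67.9 to 91.0 in ES. Its fall in ES against RS (-0.41, adjusted p = 0.0414) was lost in 8 alternatives, among them leaving out PAC replicate 2, any RS library, or ES replicate 1 or 2, with values from -0.45 to -0.27.

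Several of these genes varied within a cell type along with each other. In PAC the highest library exceeded the lowest more than 2-fold for 9 of 44 members (20.5%, against 10.2% of all features above 1 CPM in all PAC libraries). In 8 of the 9 the top library was PAC replicate 3 (Nup98, Nup153, Nup155, Nup188, Nup214, Ipo5, Kpnb1 and Xpo6), and in Nup62cl it was replicate 1. Of the 1657 features spread that widely in PAC, 73.7% also had replicate 3 on top. In ES it was 6 members (13.6%, against 16.9% of all features), and in all of them ES replicate 3 was highest: Nup98, Nup153, Nup155, Nup188, Kpnb1 and Xpo6. Of the 2930 features spread that widely in ES, 43.8% had replicate 3 on top. All 6 members are also among the 8 of PAC replicate 3. The share of all features spread that widely in both cell types was not counted, so this overlap cannot be called particular to the members. No member spread more than 2-fold in RS. Xpo6 measured 45.3, 69.1 and 138 CPM in PAC and 38.7, 83.4 and 130 in ES, against 46.3, 45 and 54.7 in RS. What set these libraries apart was not tested.

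**Figure D5:**
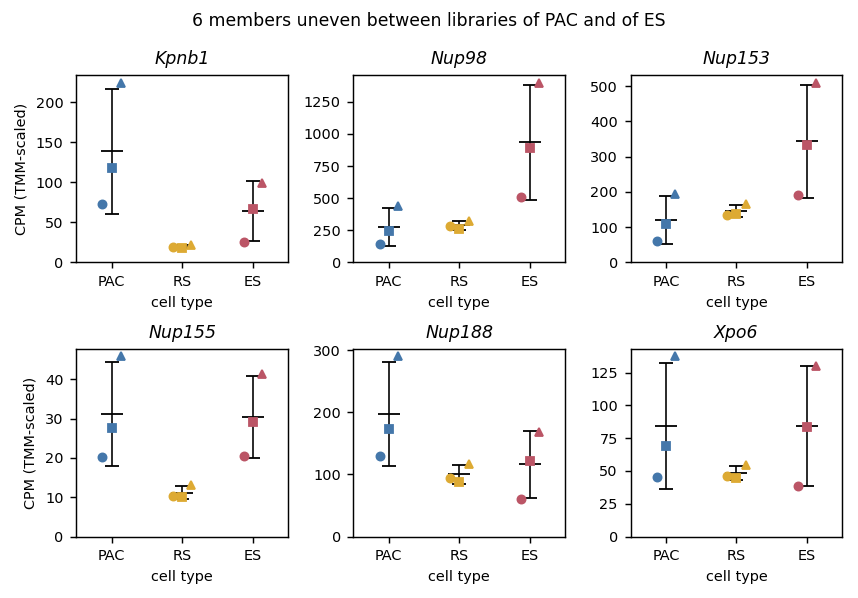
TMM-scaled CPM per library (circle, square and triangle for replicates 1, 2 and 3; bars are mean and SD) of the 6 members that spread more than 2-fold in both PAC and ES; each vertical axis starts at 0. Replicate 3 is highest in PAC and in ES in all 6 panels, and the RS libraries lie close together.

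The other genes of nuclear transport, from 3 lists that the symbol rule does not cover, include Ran, its regulators, mRNA export factors and further pore proteins. Of 46 genes 45 were tested. In RS against PAC 26 fell (57.8%) and 6 rose (13.3%), where 46.9% and 26.3% of protein-coding genes did. In ES against RS 14 rose (31.1%) and 11 fell (24.4%), close to the 31.8% and 21.7% of protein-coding genes. In ES against PAC 28 were lower (62.2%) and 5 higher (11.1%), against 42.6% and 25.2%. With total counts alone, 8 rose in ES against RS, and 9 did without RS replicate 2. In ES against PAC 8 were higher without ES replicate 1.

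In the list of Ran cycle genes and other transport receptors, 8 of 14 genes tested fell in RS and 3 rose. Of protein-coding genes 46.9% and 26.3% did. Ran was named outside the rule given below for these lists. It measured 233, 200 and 193 CPM in PAC, 179, 190 and 186 in RS and 131, 142 and 114 in ES. In ES against RS it fell by 0.52 (SE 0.13, edgeR adjusted p = 0.00714). Rcc1, the chromatin-bound exchange factor that loads Ran with GTP, rose at both steps, from 39.0, 41.4 and 36.5 CPM in PAC to 88.0, 107 and 117 in RS and 444, 392 and 321 in ES. Its second rise was 1.89 (SE 0.16, adjusted p = 6.69e-06). Rangap1, which makes Ran hydrolyse GTP in the cytoplasm, was named after its values were seen and went from 59.4 to 76.2 CPM in PAC through 238 to 265 in RS to 428 to 743 in ES (ES against PAC 2.98, adjusted p = 6.01e-07). Ranbp1 and Ranbp3, Ran-binding proteins also named after their values were seen, fell in RS by 1.36 and 1.30 (adjusted p = 6.12e-06 and 6.90e-06) and were not called between RS and ES, where Ranbp3 (-0.23) was called lower with total counts alone (-0.55) and on FPKM values (-0.57). Rcc2, an Rcc1 relative, fell by 2.29 in RS, Ranbp6, an importin beta relative, by 2.59, and Nutf2, the importer of Ran, by 2.24. All 3 rose in ES, by 1.23, 0.75 and 1.35. The rise of Ranbp6 was lost without RS replicate 1 (0.67) or ES replicate 2 (0.56), and with total counts alone (0.43).

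Of the 18 mRNA export genes 11 fell in RS and 2 rose, where 46.9% and 26.3% of protein-coding genes did. Alyref, an adaptor that hands mRNA to the export receptor, measured 182, 145 and 113 CPM in PAC, 7.23, 7.89 and 9 in RS and 34.1, 42.2 and 30.2 in ES. It fell by 4.19 in RS (SE 0.22, edgeR adjusted p = 7.40e-08) and rose by 2.14 in ES (adjusted p = 1.10e-05). Its close copy Alyref2, whose reads may be shared with it, had 1.80 to 3.36 CPM in PAC and 0.0876 to 0.181 in RS, the latter near the level of 3 counts in a library (0.0819 to 0.0904 CPM). Nxf3, a testis member of the export receptor family, measured 3.70, 4.24 and 1.62 CPM in PAC, 0.723, 0.792 and 0.321 in RS and 10.8, 17.9 and 17.1 in ES. Its rise in ES (4.63, SE 0.43, adjusted p = 1.38e-05) had the largest log2 fold change among the 46 genes.

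Among 13 further pore components 7 fell in RS and 1 rose, where 46.9% and 26.3% of protein-coding genes did. Tpr, the filament protein of the basket, fell from 102, 132 and 192 CPM in PAC to 26.3, 24.6 and 24.3 in RS (-2.50, SE 0.29, edgeR adjusted p = 2.33e-05) and rose to 35.5, 58.5 and 74.6 in ES (1.17, adjusted p = 0.00557; 0.75 on FPKM values, limma adjusted p = 0.0789). Nupl2, the older symbol of Nup42, was higher in RS, at 110 to 116 CPM, than in PAC (57.1 to 71.7) and ES (36.8 to 55.7), with a fall of -1.24 in ES (SE 0.17, adjusted p = 0.000116). Pom121, a membrane anchor, rose in ES from 7.78 to 10.6 CPM in RS to 17.5 to 52.3 (1.96, adjusted p = 0.0132), and the call was lost without RS replicate 2 (1.86, adjusted p = 0.0508) or with no filter (1.92, adjusted p = 0.0539; 1.48 on FPKM values with no filter, limma adjusted p = 0.0662). Pom121 in PAC was 8.34, 15.0 and 34.0 CPM, and its germ-line relative Pom121l2 was 180, 241 and 404. Both were highest in PAC replicate 3, as were 8 of the 9 uneven members above, and Pom121l2 fell in RS by 1.42 (adjusted p = 0.0111).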

How the data were processed

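Per the labels, total RNA of PAC, RS and ES (3 libraries each) was depleted of ribosomal RNA and made into stranded libraries with dUTP. HISAT2, StringTie and the build GRCm38.p6 appear in the submitters' processing notes. Whether counting used strand is not given in the sources used here. Per feature, the authors deposited estimated counts, not normalised (18.85% of the values are not whole), and FPKM values of the same features. The design text calls the libraries biological replicates. If they shared animals, p-values would measure only the spread between these libraries.

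Counts were rounded, filtered with filterByExpr (minimum count 10; 24463 features removed), scaled by TMM (factors 0.758 to 1.099) and compared in 1 fit of 9 libraries with edgeR 4.0.16 (quasi-likelihood, robust, two-sided, Benjamini-Hochberg over 26030 features, common biological coefficient of variation 0.24). The fit was tested on simulated data. Alternatives used DESeq2 1.42.0, other scalings and filters, limma 3.58.1 on log2(FPKM + 0.1) or log2(FPKM + 1) (which understates the change of low genes), the replicate number as a block, and each library left out. Work was done in R 4.3.3 and in Python 3.11.15 with pandas 2.3.3. Highest in a cell type means called higher against both others.

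The members and lists were chosen with earlier results of these data known. Statistics are given for the member of each role with the highest FPKM and the 2 called members with the largest change per comparison, with exceptions named as such, and of the other lists for the 2 largest called changes in RS against PAC and in ES against RS. Symbols came from RefSeq, which lists Nup58 as Nupl1 and Nup42 as Nupl2, so neither is a member. No RefSeq non-coding transcript of a member was in the table. In GENCODE M21, 15 of 44 members had an exon overlapping another gene, 8 on the same strand. Library depth limits precision, and reads are not independent molecules.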

Additional observations from a re-analysis of the deposited data

How the results depend on the processing

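Of 132 values of named genes 104 were called, and 78 of these kept their call in each of 20 alternatives. Numbers that moved by over 1.5 times were few. With upper-quartile scaling 9 members were higher in RS than in PAC (5 with TMM), 11 higher in ES than in PAC (6), 5 highest in RS (3) and 8 of the other genes higher in ES than in PAC (5). Members higher in ES than in RS (16) numbered 10, 10 and 9 on FPKM values with a pseudocount of 0.1, of 1, and of 0.1 without a filter, and members highest in ES (5) 3, 3 and 2. With total counts alone members highest in ES numbered 3, and leaving out a library gave 3 to 6. Other genes higher in ES than in RS (14) numbered 8 with total counts, 7, 7 and 6 on FPKM, and 9 to 16 with a library left out; those higher in ES than in PAC (5) 3, 3 and 3 on FPKM, and 5 to 8. The causes were not tested. On log2(FPKM + 1) some scarce members kept their calls with smaller changes, although Nup85 (0.25 in ES against RS) and Nup155 (-0.41 and 0.50) lost theirs: Ipo8 gave -1.19 in RS against PAC and 0.46 in ES against RS, Kpna3 0.89, Nup54 0.57, Nup93 0.51 and Nup62cl 1.19 in the latter.

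The replicate numbers were not taken to pair the libraries. Same-numbered libraries correlated by -0.04 to 0.27 after removing group means and other-numbered ones by -0.25 to 0.09, the highest values being those of PAC and ES replicates 3 and 1, and not every library correlated best with its own number. With the replicate block 5 members were higher and 25 lower in RS than in PAC, 16 and 13 in ES against RS, and 8 and 28 in ES against PAC. The block called Kpnb1 (-1.13, adjusted p = 0.00789) and Nup62 (-0.42) in ES against PAC, Nup62 (-0.46) in ES against RS, and Ipo5 (0.64) and Pom121 (-0.89) in RS against PAC, and did not call Kpna1 there (adjusted p = 0.0618).

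Directions changed only among values that were not called. In ES against RS, Ipo11 (-0.02) gave 0.12 with DESeq2 (both uses), 0.01 with 2 cell types fitted and -0.10 to 0.02 without a library; Kpna1 (0.18) -0.15 with total counts and -0.08 on FPKM; Kpna7 (0.41) -0.11, -0.09 and -0.11 on FPKM; Nup88 (-0.13) 0.01 with DESeq2 and -0.25 to 0.00 without a library; Xpo1 (0.26) -0.05 with total counts and -0.08, -0.07 and -0.08 on FPKM; Xpo4 (0.05) -0.28, -0.31, -0.30 and -0.31, and 0.00 to 0.09 without a library; Xpot (0.12) -0.18, -0.23, -0.18 and -0.23, and -0.02 to 0.30 without a library; Ranbp1 (0.00) 0.14 with DESeq2 (both uses), 0.01 with a minimum count of 50, 0.00 with the replicate block, 0.03 with 2 cell types fitted and -0.07 to 0.08 without a library; Pom121l2 (0.46) -0.02, -0.01 and -0.02 on FPKM. In ES against PAC, Kpna6 (-0.05) gave 0.26 with upper-quartile scaling, 0.04 with DESeq2, 0.06 with a minimum count of 50, 0.15 with 2 cell types fitted and -0.09 to 0.00 without a library; Nup155 (-0.04) gave 0.27, 0.04, 0.06 and 0.17, 0.10, 0.09 and 0.10 on FPKM, and -0.33 to 0.32 without a library; Nup50 (-0.23) gave 0.08 with upper-quartile scaling. In RS against PAC, Nup62cl (0.00) gave 0.04 with total counts, 0.29 with upper-quartile scaling, 0.01 with no filter, 0.09 with a minimum count of 50, 0.07 with the replicate block, 0.00 with 2 cell types fitted, 0.28, 0.17 and 0.28 on FPKM, and -0.32 to 0.39 without a library; Tnpo1 (-0.23) 0.08 with upper-quartile scaling; Ran (-0.17) 0.13 with upper-quartile scaling and 0.03 on FPKM; Nup210 (-0.09) 0.22 with upper-quartile scaling and -0.16 to 0.01 without a library; Nup62 (0.03) -0.02 with DESeq2 and -0.10 to 0.12 without a library; Nup98 (0.05) -0.26 to 0.55 and Nup153 (0.28) -0.05 to 0.79 without a library.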
